A study of Homo sapiens with 6 samples.

Results

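EGLN1, STC2 and KDM3A are 3 genes linked to hypoxia, the shortage of oxygen, and they were followed here among the 14884 named genes measured on 6 microarrays. The rule takes the brightest probe set of a gene, and each of the 3 had a single named one (16700489 for EGLN1, 17002898 for STC2 and 16882428 for KDM3A). EGLN1 lies at chr1:231363756-231422287, STC2 at chr5:173314723-173328414 and KDM3A at chr2:86437044-86492716 (GRCh38.p14). The 3 genes were chosen by their measured siCSRP2 minus siControl differences and their siControl 3 values, so those are given below as a description, without a test. The Affymetrix HuGene 2.0 arrays hold total RNA of the breast cancer cell line Hs578T, which has a mesenchymal look, transfected with a small interfering RNA (siRNA) against CSRP2 (siCSRP2, 3 arrays) or with a non-targeting siRNA (siControl, 3 arrays). CSRP2 encodes a LIM domain protein that bundles actin. All cells grew in DMEM that held 10% serum and insulin at 0.01 mg/ml, were transfected with a lipid reagent and replated 24 h afterwards, and gave RNA after another 48 h. The labels give no oxygen level for any sample and do not say whether equal replicate numbers mark separate cultures, so the p-values below reflect the spread among arrays, part or all of which may be technical. In bulk RNA, fewer cells that express a gene and less RNA per cell cannot be told apart.

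Cells sense oxygen through the hypoxia-inducible factors (HIF). EGLN1 is the main oxygen-dependent prolyl hydroxylase that marks the HIF alpha subunits for capture by the VHL ubiquitin ligase and for destruction, and its own gene is a HIF target, which forms a feedback loop. KDM3A is a histone demethylase of the Jumonji (JmjC) family and, like EGLN1, an iron and 2-oxoglutarate dependent dioxygenase. STC2 is a secreted glycoprotein that blocks the protease PAPP-A, and its gene is induced both by low oxygen and by stress of the endoplasmic reticulum.

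The promoter windows of the 3 genes are shown because HIF target genes share a short core motif, ACGTG or GCGTG, and it was searched for on both strands. Each window runs from 250 bases before to 50 bases after a RefSeq transcript start (GRCh38.p14), 5′ to 3′ on the strand of the gene, and capitals mark the core motif or its reverse complement (CACGT or CACGC), where neighbouring matches can overlap.
EGLN1, chr1:231422238-231422537, minus strand: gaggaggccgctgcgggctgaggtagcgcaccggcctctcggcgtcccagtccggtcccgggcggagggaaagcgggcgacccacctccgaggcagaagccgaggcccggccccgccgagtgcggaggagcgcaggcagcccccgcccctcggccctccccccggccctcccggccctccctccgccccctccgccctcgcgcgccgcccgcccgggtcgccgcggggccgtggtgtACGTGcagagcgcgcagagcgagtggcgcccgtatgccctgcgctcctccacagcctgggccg
STC2, chr5:173328365-173328664, minus strand: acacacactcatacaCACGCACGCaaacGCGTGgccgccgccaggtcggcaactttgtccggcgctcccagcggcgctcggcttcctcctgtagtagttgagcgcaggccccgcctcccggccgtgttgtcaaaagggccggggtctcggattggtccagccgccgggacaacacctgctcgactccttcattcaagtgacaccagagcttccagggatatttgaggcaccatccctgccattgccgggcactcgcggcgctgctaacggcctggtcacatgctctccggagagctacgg
KDM3A, chr2:86441121-86441420, plus strand: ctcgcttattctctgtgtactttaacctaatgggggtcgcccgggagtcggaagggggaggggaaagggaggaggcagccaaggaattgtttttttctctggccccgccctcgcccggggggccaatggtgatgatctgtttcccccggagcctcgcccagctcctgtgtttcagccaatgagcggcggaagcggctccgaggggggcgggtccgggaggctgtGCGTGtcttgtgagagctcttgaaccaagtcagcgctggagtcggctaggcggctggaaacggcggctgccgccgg
The EGLN1 window held 1 match, ACGTG on the strand of the gene, with its first base at position -13 from the start. The KDM3A window also held 1 match, GCGTG at position -26, and the same letters fell at -116 in the window of a second KDM3A start at chr2:86441211-86441510. STC2 had 3 matches, GCGTG at -222 and CACGC at -231 and -235, the last 2 overlapping by 1 base. Such matches are common: 48.4% of 35116 promoter windows in the RefSeq table held at least 1, 21.4% held ACGTG and 36.5% held GCGTG on either strand. The windows are rich in G and C, at 80% for EGLN1 and 64% for STC2 and KDM3A, against a median of 58.7% over all windows. A match describes the letters and does not show binding.

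On the log2 scale of the deposited values, EGLN1 measured 4.98, 5.12 and 5.06 on siCSRP2 arrays 1 to 3, against 5.60, 5.44 and 5.64 on siControl arrays 1 to 3. All siCSRP2 arrays lay below all siControl arrays, and siControl 3 was the highest of the 6. The group means were 5.05 ± 0.07 and 5.56 ± 0.11 (siCSRP2 and siControl, SD, n = 3), a difference of -0.51 (SE 0.11), or 1.42-fold lower in siCSRP2. Each SE of a difference here and below comes from the limma model, which borrows variance from all genes. It therefore differs from the SE that the SDs alone would give. Between arrays of equal replicate number the difference was -0.62, -0.32 and -0.58.

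STC2 measured 7.47, 7.33 and 7.43 in siCSRP2, against 7.97, 7.82 and 7.89 in siControl. The groups again did not overlap, and the replicates of each group lay within a narrow span. The means were 7.41 ± 0.07 in siCSRP2 and 7.89 ± 0.07 in siControl (SD, n = 3), a difference of -0.48 (SE 0.10), or 1.4-fold lower in siCSRP2. The 3 differences between equal replicate numbers were nearly the same size, -0.50, -0.49 and -0.46.

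KDM3A went the other way and was uneven among the controls. It measured 6.24, 6.23 and 6.18 on the siCSRP2 arrays, against 5.07, 5.05 and 6.12 on the siControl arrays. siControl 1 and siControl 2 were low and nearly equal, and siControl 3 lay just under the siCSRP2 arrays. The siCSRP2 mean was 6.22 ± 0.03 and the siControl mean 5.41 ± 0.61 (SD, n = 3), a difference of 0.80 (SE 0.26), or 1.74-fold higher in siCSRP2. Without siControl 3 the difference was 1.16 (SE 0.12), or 2.23-fold, while EGLN1 and STC2 without that array differed by -0.47 and -0.48. The difference between equal replicate numbers was 1.17, 1.18 and 0.06.

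**Figure D1:**
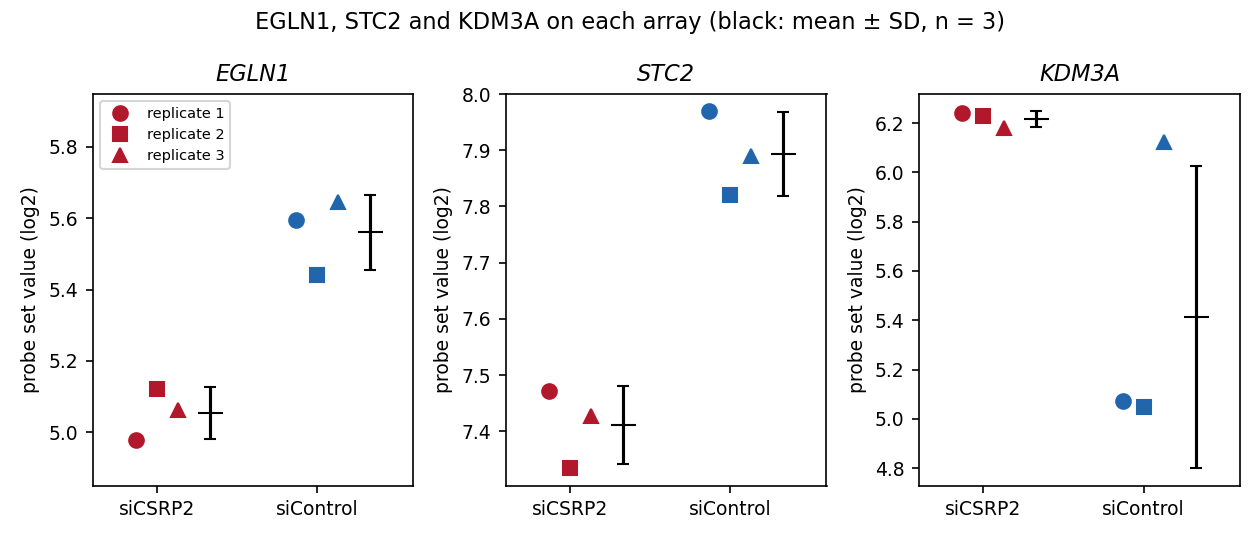
Log2 probe set values (vertical axis, which does not start at 0) of EGLN1, STC2 and KDM3A on the 3 siCSRP2 arrays (red) and the 3 siControl arrays (blue), with marker shapes for replicate numbers and the mean ± SD in black. EGLN1 and STC2 are lower on every siCSRP2 array, and for KDM3A the siControl 3 array at 6.12 sits beside the siCSRP2 arrays.

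For 16.2% of all genes siCSRP2 was lower without overlap of the groups, and for 11.5% it was higher without overlap; EGLN1 and STC2 belong to the first share and KDM3A to the second. A model across all genes (limma, Benjamini-Hochberg adjusted p below 0.05) called 7.34% of genes, 6.54% as lower and 0.8% as higher in siCSRP2, and 89.1% of its calls were thus lower. At an unadjusted p below 0.05, 17.4% of genes were lower and 6.32% higher. With replicate number added as a block the called share was 15.8%, 13.1% lower and 2.67% higher. These shares are the background for the gene lists below, and no call is read for EGLN1, STC2 or KDM3A. Ranked by difference over all genes, EGLN1 was number 1582 from the lowest, STC2 number 1726 from the lowest and KDM3A number 94 from the highest.

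The whole set of arrays limits these values. CSRP2 itself measured 3.25, 3.76 and 4.26 in siCSRP2, against 3.69, 4.01 and 4.35 in siControl, a difference of -0.26 (SE 0.26) short of the threshold (limma, adjusted p = 0.583), so the target does not check the labels and siCSRP2 means the arrays labelled so. Mesenchymal markers were present, with a mean over 7 measured genes of 6.04 to 6.37 on siCSRP2 and 6.91 to 7.28 on siControl arrays. AXL (-1.73), SNAI2 (-1.21), VIM (-0.82), S100A4 (-0.77) and FN1 (-0.59) were among the 6 of these 7 that fell, against 6.54% of all genes. In a fit of genes above the median level alone 6 of the 7 also fell, against 15.3% of all such genes. With all genes in the fit ZEB1 did not pass (-0.09, limma, adjusted p = 0.72). AXL did not pass without siControl 2 (adjusted p = 0.0526), and VIM passed in 3, SNAI2 and S100A4 in 2 and FN1 in 1 of the 6 fits that left out an array. SNAI2 also did not pass after quantile normalization (0.064) or cyclic loess (0.0603). Of 9 luminal epithelial markers none passed (1 was lower at an unadjusted p below 0.05, against 17.4% of all genes, and 1 fell in the fit with the block and without siControl 3, against 13.1% and 14.7%). Of the 9, 5 lay below the median gene on every array, and the mean of the 9 was 3.35 to 3.62 on siCSRP2 and 3.41 to 3.52 on siControl arrays. KRT18 was far brighter, at 7.19 to 8.39, and was the marker that was lower. Its difference was -0.74 (limma, adjusted p = 0.0635), with adjusted p = 0.00746 with the block and 0.00269 without siControl 3. All 4 measured endothelial markers lay below the median gene, and their mean was 2.38 to 2.49 on siCSRP2 and 2.41 to 2.52 on siControl arrays. None passed, also at an unadjusted p below 0.05. Of 6 leukocyte markers CD14 and CD68 were measured, with a mean of 5.31 to 5.57 on siCSRP2 and 4.97 to 5.33 on siControl arrays, and neither passed (CD68 was higher at an unadjusted p below 0.05, and passed without siControl 3 at adjusted p = 0.00971). That mean joins unlike levels: CD14 lay below the median gene on every array, at 2.56 to 2.71, and CD68 measured 7.39 to 8.48. The part of these lists in the 3 genes' differences was not tested. Over all genes the mean correlation of siControl 3 was 0.966 with siCSRP2 arrays and 0.967 with siControl 1 and 2.

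Few of the other HIF targets passed the test between siCSRP2 and siControl. Of 61 listed HIF targets other than the 3 genes, 37 were measured, and of these 2 fell, none rose and 35 did not pass (limma; 4 lower and 3 higher at an unadjusted p below 0.05, against 17.4% and 6.32% of all genes). The share that fell, 5.41%, was near the 6.54% of all genes, and the median difference was 0.05, against 0.02 over all genes. In a fit of genes above the median level alone, 2 of 34 of these targets fell, or 5.88%, against 15.3% of all such genes. The median difference of the 34 was 0.05, against -0.15 over all such genes. A separate list of 7 measured glycolytic HIF targets is given below and is not part of the 37. TMEM45A, a transmembrane protein gene induced by hypoxia, fell by 0.80 (SE 0.13, adjusted p = 0.0134): it measured 6.22, 6.16 and 6.07 on siCSRP2 and 6.97, 6.73 and 7.15 on siControl arrays. ZNF395, a zinc finger transcription factor induced by hypoxia, fell by 0.50 (SE 0.11, adjusted p = 0.0368). siControl 3 was the highest array for TMEM45A and lay between the other controls for ZNF395, at 3.95 beside 3.88 and 4.02. ZNF395 passed in 1 of the 6 fits that left out an array, the one without siControl 3, and its adjusted p reached 0.158 without siControl 2. It also did not pass after quantile normalization (0.064), cyclic loess (0.0629) or with the trended robust prior (0.0715). TMEM45A passed in 3 of them, and was at 0.0613 without siControl 1, 0.0604 without siCSRP2 2 and 0.0576 without siCSRP2 3. In the fit with the block 2 of the 37 fell and 2 rose, against 13.1% and 2.67% of all genes, and the risers were KDM5C (adjusted p = 0.0119) and RORA (0.0417).

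VEGFA, the angiogenic growth factor that is the best known HIF target, measured 7.29, 7.07 and 7.19 on siCSRP2 arrays and 7.15, 7.02 and 7.67 on siControl arrays. Its difference was -0.10 (SE 0.17, adjusted p = 0.769), and siControl 3 was its highest array. CA9, the carbonic anhydrase often used as a hypoxia marker, was not analysed here because no probe set carried its name. STC1, the paralogue of STC2 and also a HIF target, measured 9.97, 9.59 and 9.61 on siCSRP2 and 8.49, 8.68 and 9.89 on siControl arrays. Its pattern was that of KDM3A and not that of STC2: siControl 1 and 2 were low and siControl 3 lay among the siCSRP2 arrays (difference 0.70, SE 0.32, adjusted p = 0.233). Without siControl 3 STC1 was 2.2-fold higher in siCSRP2 (log2 difference 1.14, adjusted p = 0.00162).

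siControl 3 was the highest of the 6 arrays for 23 of the 37 other HIF targets, or 62.2%, against 11.2% of all genes and 11.8% of genes above the median level. The next most frequent highest array was siCSRP2 3, with 5 of the 37. siControl 1 was the lowest array for 18 of the 37, or 48.6%, against 17.0% of all genes. The median deviation of the 37 genes from each gene's own mean over the 6 arrays was 0.36 on siControl 3, against -0.24 on siControl 1 and -0.14 on siControl 2, and it lay between -0.01 and 0.08 on the siCSRP2 arrays. siControl 3 was highest for 21 to 23 of the 37 after quantile normalization, cyclic loess or median centring.

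Single genes show the size of this. HILPDA, a lipid droplet protein gene induced by hypoxia, measured 7.62 on siControl 3, against 4.71 on siControl 1 and 5.67 on siControl 2, and 6.43, 6.18 and 5.67 on the siCSRP2 arrays. The glycolytic hexokinase HK2 measured 7.38 on siControl 3, against 5.19 and 6.04 on the other controls, and 6.53, 7.03 and 6.68 on the siCSRP2 arrays. The mitophagy receptor BNIP3 measured 10.04 on siControl 3, against 8.76 and 9.09 on the other controls, and 8.93, 9.48 and 9.54 on the siCSRP2 arrays. The stress response gene NDRG1 measured 7.60 there, against 6.38 and 6.67, and 7.18, 6.96 and 6.65 on the siCSRP2 arrays. For HILPDA, HK2, BNIP3 and NDRG1 the siControl 3 value was above every siCSRP2 array. EGLN3, the prolyl hydroxylase most strongly induced by hypoxia, was also highest on siControl 3, at 4.56 against 3.78 and 4.10, with 4.33, 4.20 and 4.19 on the siCSRP2 arrays (difference 0.10, SE 0.18, adjusted p = 0.789).

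**Figure D2:**
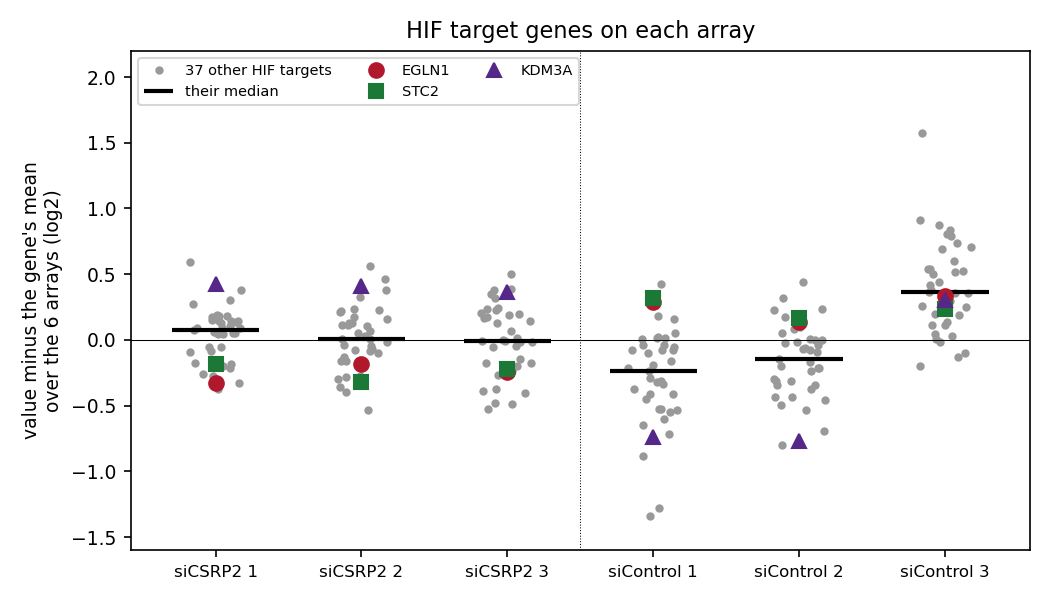
Deviation of each gene from its own mean over the 6 arrays (log2, vertical axis) for 37 other HIF targets (grey points, black line at their median) and for EGLN1, STC2 and KDM3A, on each siCSRP2 and siControl array. The grey median is 0.36 on siControl 3 and -0.24 on siControl 1, and KDM3A is low on siControl 1 and 2 alone.

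The position of siControl 3 between the other controls and the siCSRP2 arrays was put on a scale on which 0 is the mean of siControl 1 and 2 and 1 is the siCSRP2 mean. EGLN1 lay at -0.27, STC2 at 0.01 and KDM3A at 0.92. Over the 3539 genes whose siCSRP2 mean differed by at least 0.4 from the mean of siControl 1 and 2, the median position was 0.59 (quartiles 0.33 and 0.83), with 32.1% of genes at 0.75 or above and 7.29% at 0 or below. EGLN1 and STC2 lay below these quartiles and KDM3A above them. Within its own direction KDM3A lay inside the quartiles, which were 0.28 and 0.94 over the 761 higher genes. EGLN1 and STC2 also lay below the quartiles of the 2778 lower genes, 0.34 and 0.81. Of the other HIF targets 14 met the same 0.4 limit, 12 higher and 2 lower in siCSRP2. Among the 12, 11 lay at 0.75 or above, where 39.4% of all 761 higher genes lay. Both lower ones lay at 0 or below, where 6.80% of all 2778 lower genes lay. TMEM45A was at -0.43 and ZNF395 at -0.0013, barely past the cut.

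Without siControl 3, 9 of the 37 other HIF targets rose and 2 fell (limma), against 2.87% and 14.7% of all genes, and the list median was 0.19, against 0.03 over all genes. The 9 were STC1, HK2, the nuclear receptor RORA, the chemokine receptor CXCR4, the histone demethylase KDM5C, ANKRD37, the collagen cross-linking oxidases LOX and LOXL2, and the endoplasmic reticulum oxidase ERO1A, with log2 differences of 1.14 for STC1 to 0.45 for ERO1A and adjusted p up to 0.0292. With all 6 arrays none of the 37 rose. siControl 3 was the highest array for 23 of the 37, so leaving it out lowers the control mean of those 23. The counts without it repeat that pattern and are no separate test of it. The list median ran from -0.09 without siControl 1 to 0.19 without siControl 3, and it was -0.02 without siControl 2 or without siCSRP2 2 and -0.04 after median centring. The 7 glycolytic HIF targets, which are not among the 37, went the other way without siControl 3: 2 fell, none rose and their median was -0.30. The glycolytic HK2 was listed among the 37 and not among the 7, and it rose by 1.13 without siControl 3. No other hybridisation or culture record was at hand for siControl 3, and what sets it apart was not tested.

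**Figure D3:**
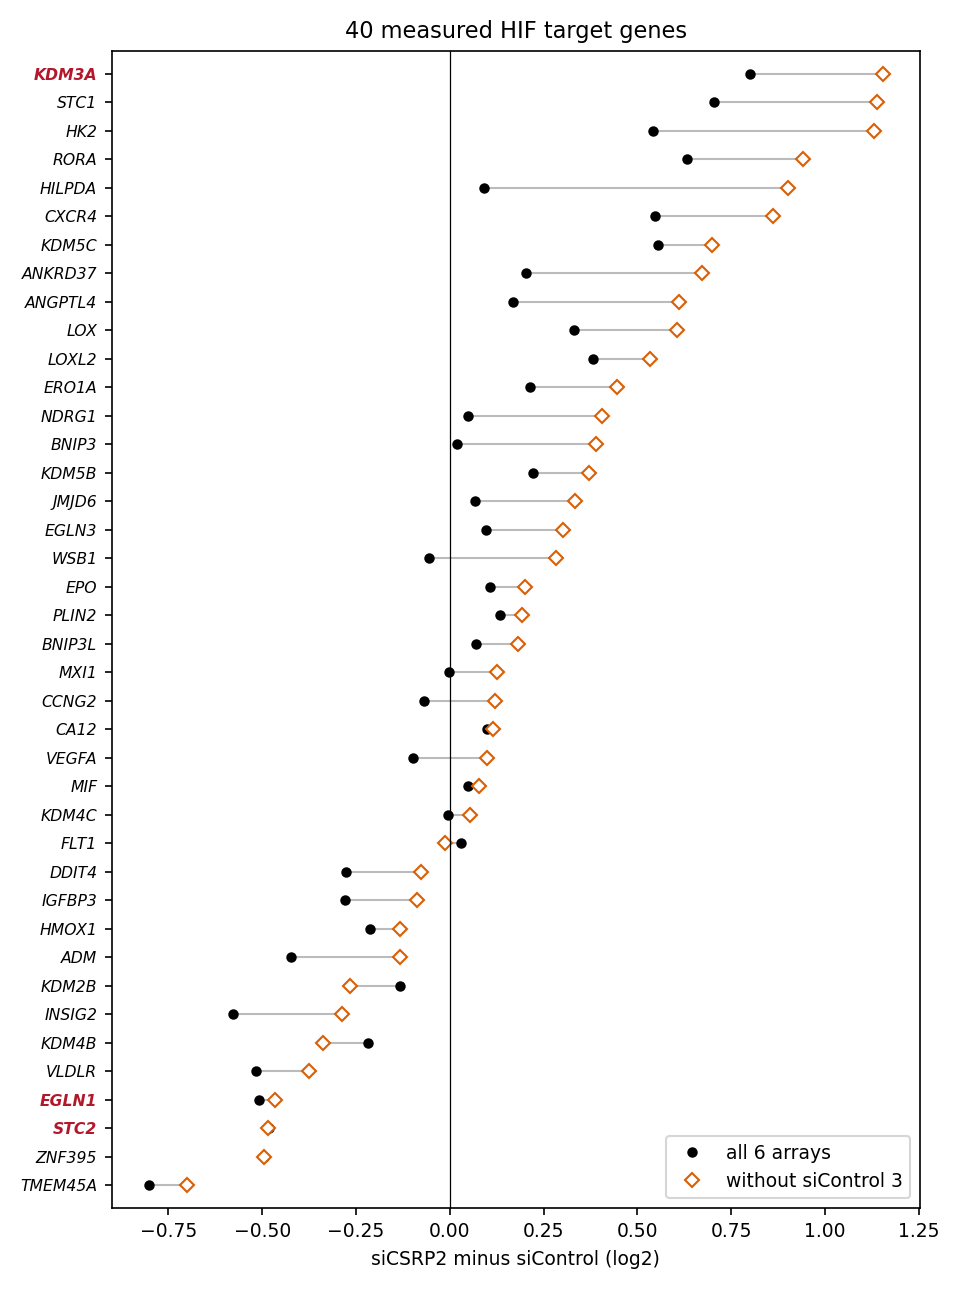
Log2 difference of siCSRP2 minus siControl (horizontal axis) for the 40 measured HIF targets with all 6 arrays (black) and without siControl 3 (open orange), with the names of EGLN1, STC2 and KDM3A in red. KDM3A is at 0.80 with all arrays and 1.16 without siControl 3, and EGLN1, STC2, TMEM45A and ZNF395 are below 0 in both.

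In the oxygen-sensing machinery, 10 genes other than EGLN1 were measured of 24 listed. EGLN2, HIF1A, HIF3A, VHL and HIF1AN had no named probe set and were not analysed here. Of the 10, 2 fell (6.54% of all genes did), none rose and 8 did not pass (limma; 2 lower and 2 higher at an unadjusted p below 0.05, against 17.4% and 6.32% of all genes), with a median difference of 0.02. In the fit of genes above the median level alone 2 of 9 fell, or 22.2%, against 15.3% of all such genes. EPAS1, the HIF alpha subunit also called HIF-2 alpha and a substrate of EGLN1, measured 4.87, 5.03 and 4.71 on siCSRP2 and 5.42, 5.82 and 5.81 on siControl arrays. It fell by 0.81 (SE 0.15, adjusted p = 0.0172), or 1.75-fold, and the groups did not overlap. EPAS1 did not pass without siControl 2 (adjusted p = 0.0924), siCSRP2 2 (0.052) or siCSRP2 3 (0.0699). CUL2, the cullin scaffold of the VHL ligase, fell by 0.82 (SE 0.21, adjusted p = 0.049), and passed in 1 of 6 fits that left out an array, the one without siControl 3, reaching 0.195 without siControl 2. CUL2 also did not pass after quantile normalization (0.0834), cyclic loess (0.0809) or with the mean of probe sets (0.0503). Its siControl 3 value, 4.35, lay under the 5.13 and 5.05 of the other controls and above the 4.12, 4.13 and 3.81 of siCSRP2. The obligate HIF partner ARNT measured 4.96, 5.33 and 5.36 on siCSRP2 and 5.45, 5.38 and 5.21 on siControl arrays (difference -0.13, SE 0.14, adjusted p = 0.621). SIAH2, a ubiquitin ligase that acts on EGLN proteins, measured 5.50, 5.68 and 5.80 on siCSRP2 arrays and 4.65, 4.78 and 5.66 on siControl arrays, where siControl 3 was again high beside the other controls (difference 0.63, adjusted p = 0.156). With the replicate number as a block, SIAH2 (adjusted p = 0.034) and the coactivator EP300 (0.60, adjusted p = 0.0105) rose. In that fit 2 of the 10 fell and 2 rose, against 13.1% and 2.67% of all genes.

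KDM3A was set beside its family of JmjC proteins, of which 24 others were measured of 28 listed. Of these 2 fell, or 8.33%, near the 6.54% of all genes, none rose and 22 did not pass (limma; 6 lower and 3 higher at an unadjusted p below 0.05, against 17.4% and 6.32% of all genes), and the median difference was 0.00. In a fit of genes above the median level alone, 2 of 20 fell and 1 rose, against 15.3% and 2.00% of all such genes. JMJD8, a JmjC protein of the endoplasmic reticulum, fell by 0.83 (SE 0.19, adjusted p = 0.0354), and HR, the hairless corepressor, fell by 0.59 (SE 0.13, adjusted p = 0.0367). HR was dim, at 2.89, 2.84 and 2.52 on siCSRP2 and 3.30, 3.48 and 3.23 on siControl arrays. The medians over all probe sets were 2.80 to 2.82 on siCSRP2 arrays. JMJD8 passed in 1 and HR in 2 of the 6 fits that left out an array, each with its highest adjusted p without siControl 2 (0.146 and 0.161). JMJD8 also did not pass after quantile normalization (0.0657) or cyclic loess (0.0593). Neither KDM3B nor JMJD1C, close relatives of KDM3A, passed: KDM3B measured 4.46, 4.71 and 4.72 on siCSRP2 and 5.31, 5.22 and 4.90 on siControl arrays (difference -0.52, SE 0.14, adjusted p = 0.0623), and JMJD1C measured 4.90, 5.37 and 5.43 on siCSRP2 and 4.60, 4.87 and 5.21 on siControl arrays (difference 0.34, SE 0.19, adjusted p = 0.324). The histone demethylase KDM7A had the largest difference of the measured JmjC genes, with 6.97, 7.48 and 7.27 on siCSRP2 and 4.71, 5.05 and 6.93 on siControl arrays (difference 1.68, SE 0.49, adjusted p = 0.0766). Its siControl 3 value again lay beside the siCSRP2 arrays, at position 0.87. In the fit with the block, 6 of the 24 fell and 4 rose, against 13.1% and 2.67% of all genes, and KDM3B (adjusted p = 0.0439) and KDM7A (0.016) were among them. Without siControl 3, 5 fell and 3 rose, against 14.7% and 2.87% of all genes.

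**Figure D4:**
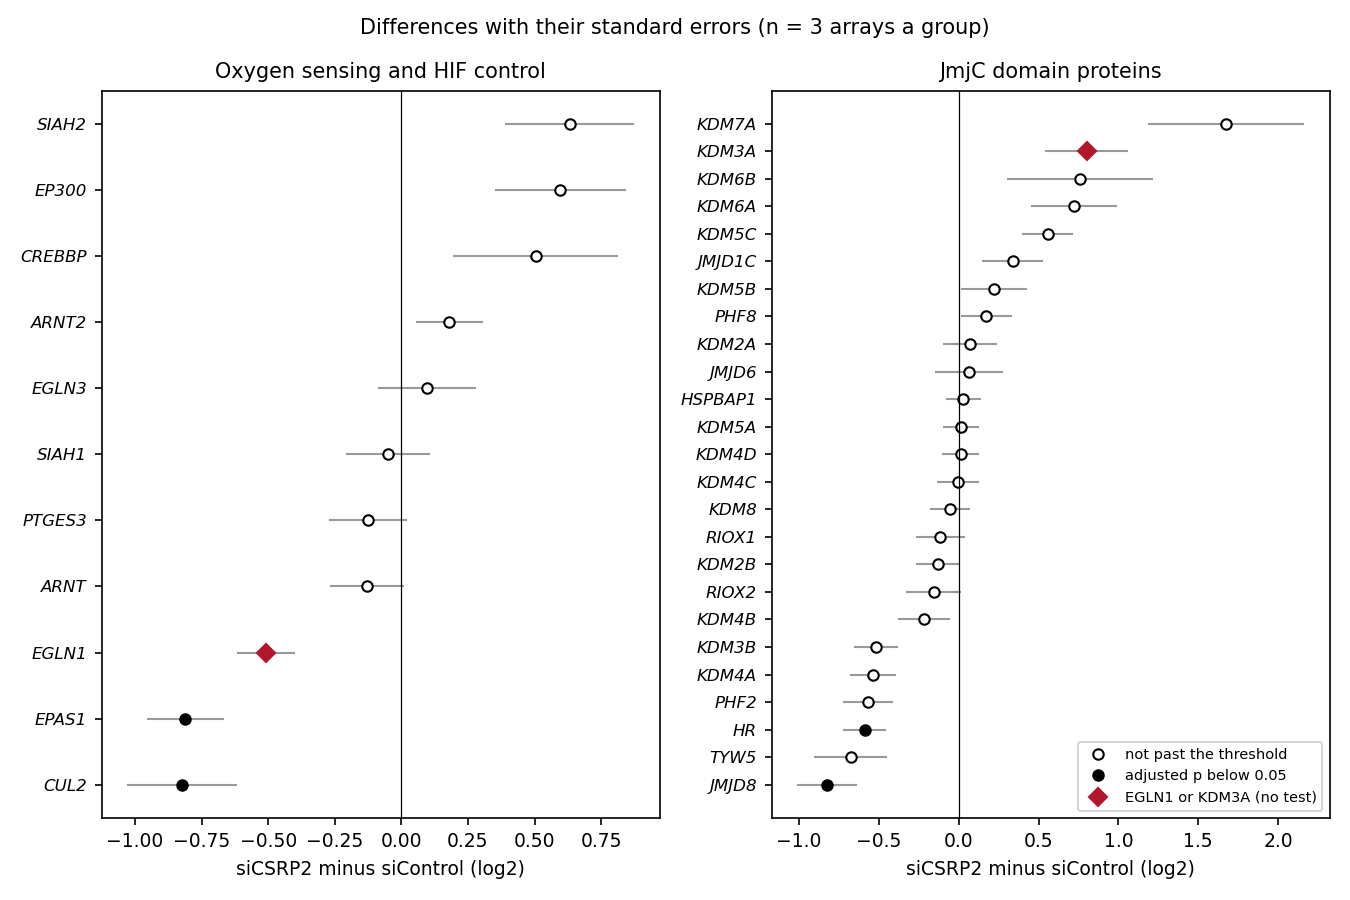
Log2 difference of siCSRP2 minus siControl with its standard error from the limma model (horizontal axis, n = 3 arrays a group) for measured oxygen-sensing genes (left) and JmjC genes (right). Filled circles passed the test, open circles did not, and red diamonds are EGLN1 at -0.51 and KDM3A at 0.80, given as a description.

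Of 11 other measured dioxygenases that use iron and 2-oxoglutarate, as EGLN1 and KDM3A do, 2 fell, against 6.54% of all genes, and none rose (limma). At an unadjusted p below 0.05, 7 were lower, against 17.4% of all genes, and none higher, and the median difference was -0.42, against 0.02 over all genes. In the fit of genes above the median level alone 2 of 9 fell, or 22.2%, against 15.3% of all such genes. Of the 9, 7 were lower at an unadjusted p below 0.05, against 2134 of 7442 such genes. Their median difference was -0.55, against -0.15 over all such genes. The collagen prolyl hydroxylase P3H2 fell by 0.95 (SE 0.14, adjusted p = 0.00992) and the RNA demethylase FTO fell by 0.77 (SE 0.14, adjusted p = 0.0167). P3H2 measured 4.78, 5.16 and 5.22 on siCSRP2 and 5.90, 6.05 and 6.05 on siControl arrays, with siControl 3 beside the other controls as for EGLN1. P3H2 was lost without siControl 2 (adjusted p = 0.0611), and FTO passed in 2 of the 6 such fits and reached 0.0777 without siControl 2. With the replicate number as a block 6 of the 11 fell, against 13.1% of all genes.

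Around STC2, 7 other genes of the stanniocalcin and PAPP-A axis were measured, of which 1 fell, against 6.54% of all genes, and none rose (limma; 3 lower and none higher at an unadjusted p below 0.05, against 17.4% and 6.32% of all genes). In the fit of genes above the median level alone 1 of 4 fell, against 15.3% of all such genes. IGFBP4, the insulin-like growth factor binding protein that PAPP-A cleaves, measured 4.88, 5.10 and 4.74 on siCSRP2 and 6.30, 6.78 and 5.59 on siControl arrays. It fell by 1.32 (SE 0.26, adjusted p = 0.0244), or 2.49-fold, without overlap of the groups, and its adjusted p reached 0.101 without siCSRP2 3. It passed in 1 of the 6 fits that left out an array, the one without siControl 3. PAPPA itself had no named probe set and was not analysed here. With the replicate number as a block IGFBP5 also fell (by 0.56, adjusted p = 0.018). In that fit 2 of the 7 fell and none rose, against 13.1% and 2.67% of all genes.

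STC2 also belongs to the genes of endoplasmic reticulum stress and of the transcription factor ATF4, of which 13 others were measured. Of these 1 fell and 1 rose, against 6.54% and 0.8% of all genes (limma; 2 lower and 5 higher at an unadjusted p below 0.05, against 17.4% and 6.32%). In the fit of genes above the median level alone 1 of the 13 fell and 1 rose, against 15.3% and 2.00% of all such genes. The pseudokinase TRIB3 fell by 0.58 (SE 0.12, adjusted p = 0.0249), with 5.40, 5.14 and 5.10 on siCSRP2 and 5.85, 5.77 and 5.77 on siControl arrays. Asparagine synthetase, ASNS, rose by 0.78 (SE 0.16, adjusted p = 0.026). Each passed in 2 of the 6 fits that left out an array, with adjusted p up to 0.108 for TRIB3 (without siControl 1) and 0.116 for ASNS (without siControl 2). TRIB3 also did not pass after quantile normalization (0.0913), cyclic loess (0.0747) or with the trended robust prior (0.057). In the fit with the block 1 of the 13 fell and 3 rose, against 13.1% and 2.67% of all genes. Without siControl 3, 1 fell and 5 rose, against 14.7% and 2.87%.

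Among 7 measured glycolytic HIF targets 1 fell, against 6.54% of all genes, and none rose (limma; 5 lower and none higher at an unadjusted p below 0.05, against 17.4% and 6.32% of all genes). In the fit of genes above the median level alone 1 of the 7 fell, or 14.3%, against 15.3% of all such genes. At an unadjusted p below 0.05, 3 of the 7 were lower in that fit, against 2134 of 7442 such genes. The isomerase GPI fell by 0.73 (SE 0.11, adjusted p = 0.00992), though not without siControl 1 (0.053) or siControl 2 (0.0611), and PGK1 and LDHA fell as well with replicate number as a block (adjusted p = 0.0337 and 0.0377). In the fit with the block 3 of the 7 fell and none rose, against 13.1% and 2.67% of all genes. PGK1 had its highest value on siControl 3, 7.42, against 6.64 and 6.91 on the other controls. LDHA did too, at 7.96 against 7.60 and 7.69. Without the block neither passed, with all arrays (differences -0.52 and -0.41, limma, adjusted p = 0.136 and 0.0929) or without siControl 3. Without that array both differences were -0.30 (adjusted p = 0.184 and 0.142). Without siControl 3, 2 of the 7 fell and none rose, against 14.7% and 2.87% of all genes, and the list median was -0.30.

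The genes most like each of the 3 were sought by Pearson correlation over the 6 arrays among 6939 genes, those above the median level without small and uncharacterised RNA genes. Such values describe 6 arrays in 2 groups and come from the top of a long ranking, so the differences of these genes repeat the choice and are given without a test. For EGLN1 they were AGTPBP1 (r = 0.994), PDE4DIP (0.992), LIN7C (0.987) and DENND4C (0.987). AGTPBP1, a tubulin deglutamylase, measured 3.55, 3.79 and 3.72 on siCSRP2 and 4.68, 4.50 and 4.69 on siControl arrays. For STC2 they were DENR (0.997), NIFK (0.997), UBAC2 (0.995) and PCDHB10 (0.995), with log2 differences of -0.89 for DENR to -0.42 for NIFK. For KDM3A they were UAP1 (0.996), MYC (0.989), RASA2 (0.989) and DCP2 (0.987). UAP1, an enzyme of amino sugar synthesis, measured 7.68, 7.66 and 7.71 on siCSRP2 and 6.63, 6.58 and 7.68 on siControl arrays (difference 0.72), and the growth regulator MYC measured 5.87, 5.88 and 5.74 on siCSRP2 and 4.97, 5.09 and 5.80 on siControl arrays (difference 0.54).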

How the data were processed

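Each array has a value for every probe set; the authors deposited these on what their range shows to be a log2 scale. The submitters' processing notes name Partek without version or role. Genome build, background correction and normalization: not given in the sources used here. No detection calls were used. Of 53617 probe sets, 16098 had 1 gene symbol in the platform's annotation table and none had several, and every one of the 16098 was found in RefSeq's gene table (GRCh38.p14), used for symbols and gene positions, and the brightest probe set stood for each of 14884 genes. Array medians over all probe sets were 2.80 to 2.82 on siCSRP2 and 2.70 to 2.76 on siControl arrays, with no further scaling. No pair of arrays shared more than 2 identical values. The number of arrays limits the precision.

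Groups came from the sample titles. The comparison used limma 3.58.1 under R 4.3.3 (group as the only term, Benjamini-Hochberg over all genes, threshold 0.05, two-sided), and the fit was tested on simulated data. The 3 genes, the gene lists and the naming rule were chosen with earlier results of these data known. Named by rule are the 3 genes, CSRP2, their relatives and the oxygen-sensing core, up to 8 HIF targets and 4 genes of each other list with the smallest adjusted p, list genes past the threshold with a difference of at least 1, and the 4 genes most like each of the 3. HILPDA, HK2, BNIP3, NDRG1, SIAH2, EP300, KDM7A, IGFBP5, PGK1, LDHA, CD14, CD68, KRT18, THY1, ZEB1 and the HIF targets named without siControl 3, other than STC1, lie outside this rule and were picked with values in view, as were the siControl 3 measures and the 0.4 limit.

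Replicate numbers are shared between groups. Across genes, the deviations of arrays with equal number from their group means had r of 0.305, 0.187 and 0.321. As each exceeds 0.1, a fit with replicate number as a block, which treats equal numbers as pairs, was added on the data rather than the labels. The main values come from the fit without the block. The fit with the block stands beside a result where it changes a call. Alternatives were other scalings, a filter on dim genes, probe set means, array weights, another variance prior and leaving out each array.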

Additional observations from a re-analysis of the deposited data

How the results depend on the processing

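EGLN1 and STC2 stayed lower and KDM3A higher in siCSRP2 under every alternative run. EGLN1 differed by -0.34 after quantile normalization and -0.37 after cyclic loess, and STC2 by -0.41 after quantile normalization and -0.57 after median centring. With 1 array left out EGLN1 ran from -0.57 to -0.47, STC2 from -0.52 to -0.44, KDM3A from 0.62 to 1.16 and CSRP2, which passed in no alternative, from -0.51 to -0.01. The number of genes past the threshold was 2348 with the replicate number as a block (1950 lower, 398 higher) and 2924 with array weights, and 91 (without siControl 2) to 2620 (without siControl 3) with 1 array left out. It was 157 without siControl 1, 194 without siCSRP2 2 and 285 without siCSRP2 3. The share of calls that were lower was 89.1% as deposited, 94.5% after median centring, 77.7% with cyclic loess and 76.0% with quantile normalization. The other HIF targets past the threshold numbered 1 after quantile normalization, cyclic loess or with the trended robust prior, 4 with the replicate block (2 lower, 2 higher), 7 with array weights, and 0 (without siControl 1, siCSRP2 2 or siCSRP2 3) to 11 (without siControl 3) with 1 array left out. The number of all genes called varied among the same settings, as given above. With array weights 2 of the 37 fell and 5 rose, against 15.6% and 4.01% of all genes. The like shares of all genes were 13.1% and 2.67% with the block, and 14.7% and 2.87% without siControl 3. Of 18 listed genes past the threshold, 6 did not pass after quantile normalization (ZNF395, CUL2, JMJD8, TRIB3, SNAI2 and THY1), 17 without siControl 2 and 0 with the replicate block or without siControl 3. With no detection calls, a fold at a dim level has no marked limit.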
